A study of Danio rerio with 15 samples.

Results

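Some transcripts of zebrafish larvae were lower at 60 nM of the insecticide tefluthrin than in untreated larvae, and lower again at 2.3 µM. The 200 transcripts described here, called members below, are those with the largest such fall. Together they held 0.555%, 0.551% and 0.562% of the counts of the 3 control libraries, 0.303%, 0.316% and 0.309% at 60 nM, and 0.156%, 0.164% and 0.159% at 2.3 µM. At both concentrations of the second compound, the herbicide acetochlor, their share was between 0.528% and 0.566%. The acetochlor 780 nM libraries (0.545%, 0.528% and 0.566%) overlapped control in this summed share, and the 7.8 µM libraries (0.548%, 0.536% and 0.54%) lay just below it. The rule by which the transcripts were chosen fixes the order of control and tefluthrin.

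The libraries came from pools of whole larvae of the wild-type strain NHGRI-1 at 72 h post fertilisation, sequenced after poly(A) selection. The 5 groups of 3 libraries were untreated control, tefluthrin at 60 nM, tefluthrin at 2.3 µM, acetochlor at 780 nM and acetochlor at 7.8 µM, with exposure from 48 to 72 h. The control is labelled as untreated, and the labels name no solvent, no clutch, no batch and no number of larvae per pool. Library totals ran from 17354405 to 25191374 estimated counts, and were lower in the tefluthrin groups (17354405 to 18940850) than in control (19886430 to 24576528). Because whole larvae were pooled, fewer cells of a type and less RNA per cell cannot be told apart. Nothing in the labels says that replicates came from separate clutches or exposures, so the spread between them may be technical.

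Members were chosen from the measured values themselves. Counts were divided by median-of-ratios size factors over the 15 libraries, and these scaled counts are the level given throughout. Group means were compared as log2(mean + 5), so that a fall of 1 is slightly more than a 2-fold drop of the scaled count when counts are low. Larger falls to low counts are understated more. With 1 added in place of 5, the fall of ENSDART00000183612.1 to 2.3 µM was 4.05 in place of 2.97. A transcript had to have a control mean of 50 to 10000 scaled counts, a fall of at least 0.4 from control to 60 nM, and a further fall of at least 0.4 from 60 nM to 2.3 µM. Every 60 nM library had to lie below every control library, and every 2.3 µM library below every 60 nM library. Of 64995 transcripts in the files, 21417 had a control mean in that range and 295 of these (1.38%) met all conditions; the 200 with the largest fall from control to 2.3 µM were taken. The control and tefluthrin values are therefore a description of what was chosen, with no test. The acetochlor libraries entered the scaling but not the choice.

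Tefluthrin is a pyrethroid. Pyrethroids hold voltage-gated sodium channels of nerve and muscle open for longer, which makes these cells fire repeatedly, and fish are known to be sensitive to them. Acetochlor is a chloroacetanilide, a class of herbicide that blocks the synthesis of very long chain fatty acids in plants. The series title names metabolic disruption as the subject of the study. The files identify transcripts by Ensembl transcript identifier and do not pair them with genes, and 0 of the 64995 identifiers matched the gene names available, so members are named by identifier and no function, gene position or sequence is given for any of them. For the same reason the tissue label could not be set against marker genes.

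Over the 200 members the median level was 227 scaled counts in control, 122 at 60 nM and 68.7 at 2.3 µM, and 207 and 196 at acetochlor 780 nM and 7.8 µM. The fall from control to 2.3 µM ran from 1.14 to 3.44 on the log2 scale, with a median of 1.49 and quartiles of 1.32 and 1.82. It was at least 2 in 36 members and at least 3 in 3 members. The step to 60 nM had a median of 0.70 and the step from 60 nM to 2.3 µM, a 38.3-fold difference in concentration, a median of 0.76. The rule set the same lower limit on both steps and left out transcripts with a flat step. The likeness of these medians therefore cannot show how the fall depends on concentration. Control means ran from 50.9 to 9400 scaled counts, with 44 members under 100 and 22 over 1000. The size of the fall was almost unrelated to the control mean across the 200 members (Spearman's rho -0.02), which share libraries and were chosen by the fall, so this is a description only.

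**Figure D1:**
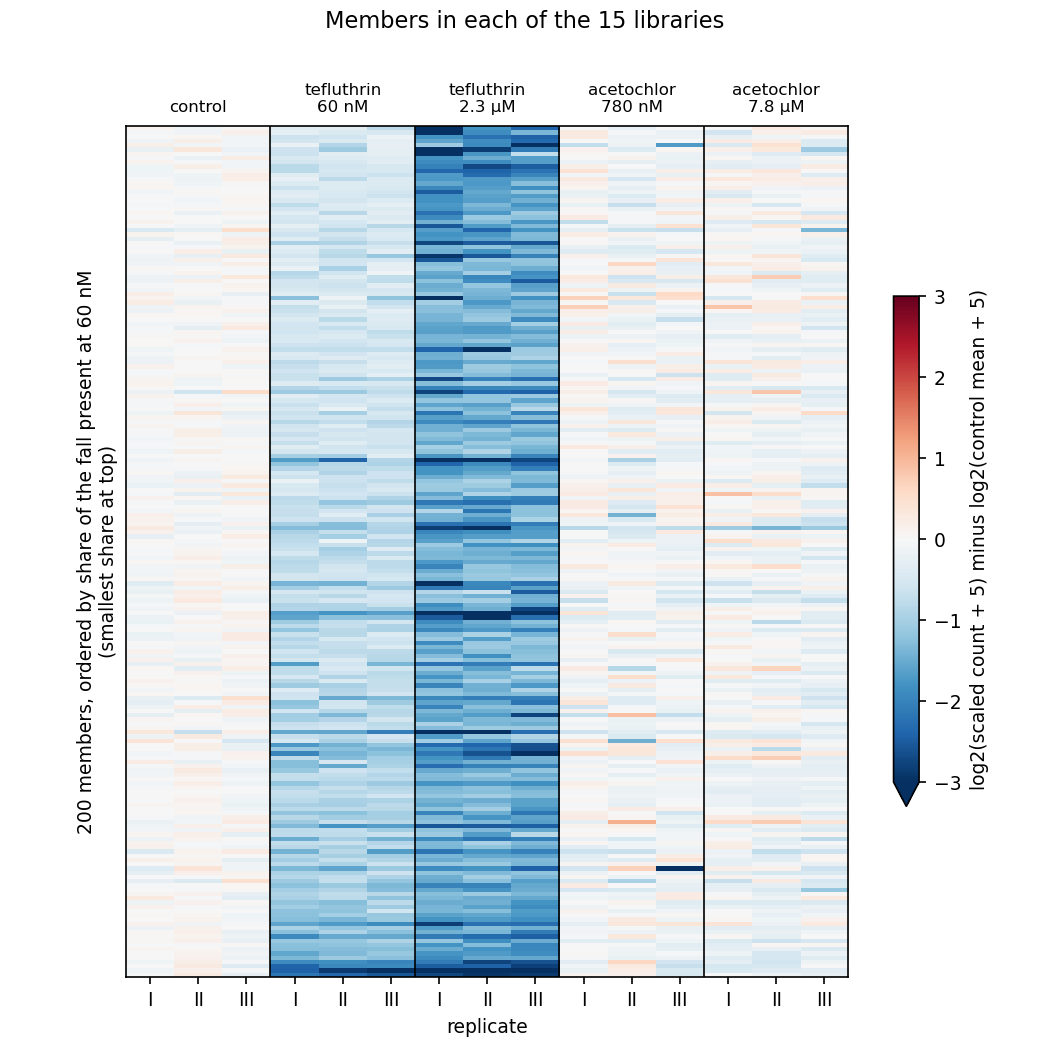
Each row is 1 of the 200 members and each column 1 of the 15 libraries; colour is log2(scaled count + 5) minus log2(control mean + 5), with values under the scale drawn in its darkest blue. Rows run from the smallest share of the fall present at 60 nM (19.5%, top) to the largest (82.9%, bottom): the 60 nM columns darken downwards, the 2.3 µM columns are dark throughout, and the acetochlor columns are mostly near the control colour.

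The largest fall belonged to ENSDART00000191383.1, with 262, 299.5 and 285 scaled counts in control replicates I, II and III, 84.9, 49.6 and 151 at tefluthrin 60 nM and 0, 26.9 and 37.3 at 2.3 µM. Replicate I at 2.3 µM was listed at 0, and without that library the fall was 2.95 in place of 3.44 (log2). The 60 nM libraries of this transcript were spread widely, within the rule's condition that each be below the lowest control. Its acetochlor 7.8 µM libraries, at 296, 277 and 312, lay around the control values, and those at 780 nM ran from 141 to 267.

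The 10 members with the largest fall differed in where the fall took place. In ENSDART00000075510.6 both steps were of like size: 539.8, 489 and 616 scaled counts in control, 171, 156 and 175 at 60 nM and 62, 45.7 and 45.8 at 2.3 µM, a total fall of 3.30 of which 1.68 was present at 60 nM. ENSDART00000126537.3 had the same shape at a similar level, with 556, 625 and 691 in control, 204, 265 and 260.5 at 60 nM and 106, 59.3 and 126 at 2.3 µM. The replicates of ENSDART00000075510.6 lay close together next to the distance between groups. Those of ENSDART00000126537.3 at 2.3 µM were spread more widely, with an SD of 34.4 on a mean of 97.4 (n = 3). That none of the 3 groups overlapped is a condition of the rule, met by every member. In ENSDART00000156407.3 the second step was larger, from 325, 342 and 395 at 60 nM to 92.5, 109 and 104 at 2.3 µM, after 636, 557 and 722 in control. The step to 60 nM was 0.84 and the next 1.75 on the log2 scale.

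In 3 of these 10 members at least 80.9% of the log2 fall was already present at 60 nM, and they are also the 3 members with the largest such share. ENSDART00000142311.3 had 84.6, 104 and 89.7 scaled counts in control, 13.2, 8.3 and 6.89 at 60 nM and 5.09, 5.18 and 3.61 at 2.3 µM. ENSDART00000036318.9 had 83.7, 106 and 74 in control, 15.6, 13.2 and 10.9 at 60 nM and 9.12, 7.22 and 7.76 at 2.3 µM. In both, the second step was a matter of a few counts, close to the 3.11 to 3.61 scaled counts that 3 reads are worth in the tefluthrin libraries. ENSDART00000160199.2 showed the same shape at a higher level, with 394, 472 and 297 in control, 69.5, 97.2 and 99.6 at 60 nM and 65.5, 68.6 and 51.5 at 2.3 µM. There the highest 2.3 µM library, at 68.6, stood just under the lowest 60 nM library, at 69.5.

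The last 3 of the 10 had control means between 50.9 and 67.3 scaled counts, near the lower limit of the rule. ENSDART00000154072.2 moved mostly in the second step: 57, 86.1 and 58.7 in control, 42.2, 29.6 and 54.5 at 60 nM and 0, 5.07 and 11.9 at 2.3 µM. Its highest 60 nM library was only slightly below its lowest control library. ENSDART00000183612.1 had 64.5, 29.5 and 58.7 in control, 14.4, 13.9 and 8.52 at 60 nM and 0, 0 and 6.38 at 2.3 µM, where 2 of 3 libraries were listed at 0. ENSDART00000182865.1 had 52.1, 52.6 and 61.1 in control, 10.3, 18.1 and 20.6 at 60 nM and 8.64, 4.82 and 2.15 at 2.3 µM. Of the 200 members, 7 were at 0 in at least 1 library at 2.3 µM and 0 were at 0 in all 3.

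**Figure D2:**
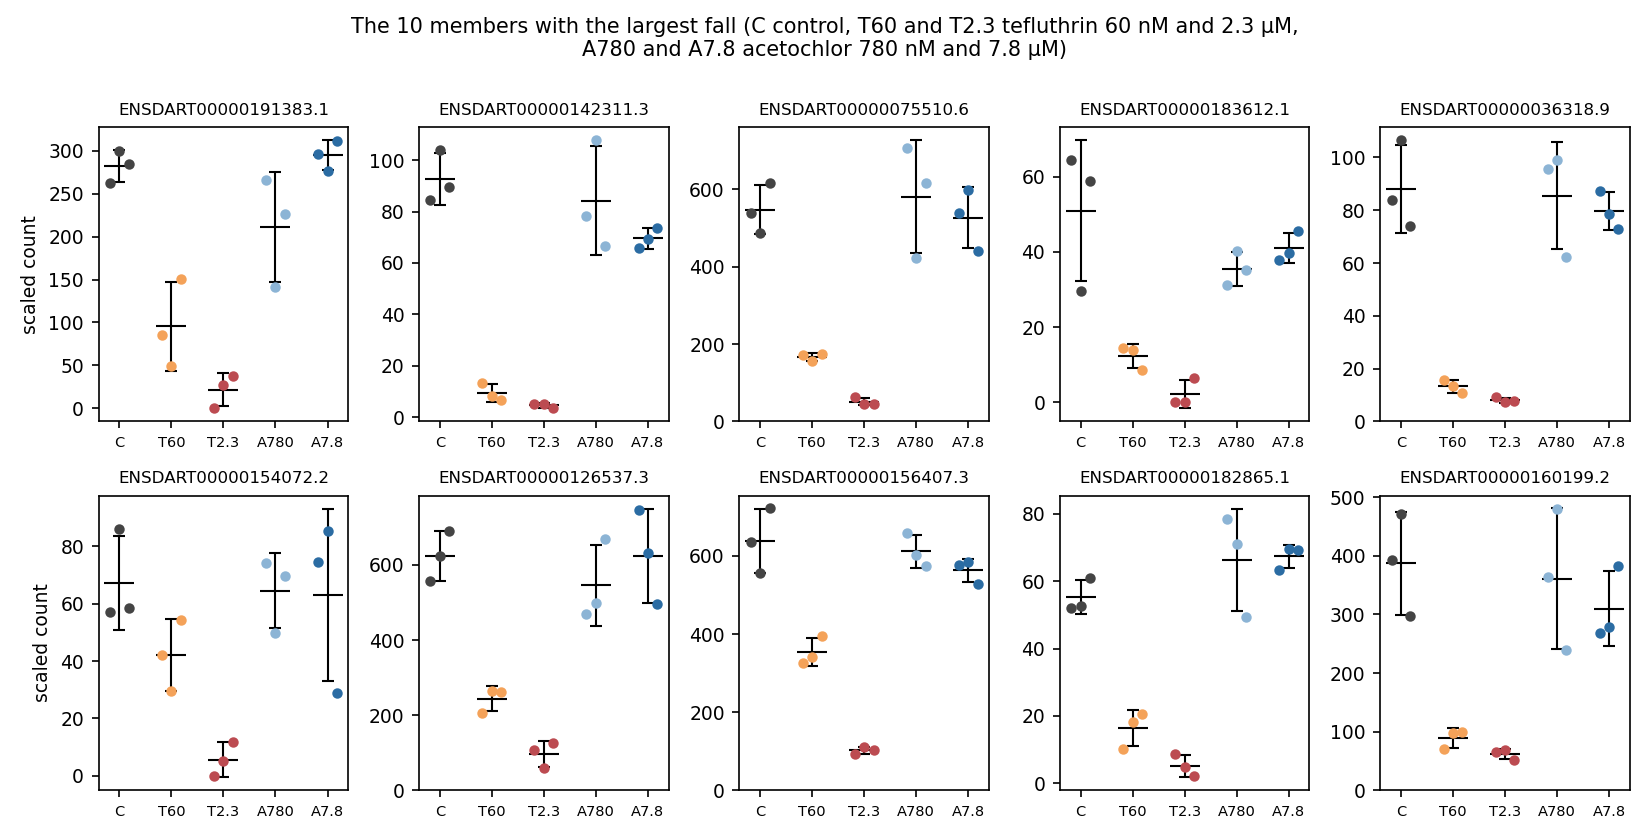
Scaled counts (vertical axes, linear) of the 10 members with the largest fall, by group along the horizontal axis; points are the libraries of a group in the order I, II and III, and the horizontal mark and bar are the mean ± SD (n = 3). In each panel the tefluthrin points step down from control to 60 nM to 2.3 µM without overlap, as the rule demands. Most acetochlor points lie around or near the control points. Some acetochlor points are as low as tefluthrin 60 nM points. They are ENSDART00000191383.1 at 780 nM II (141) and ENSDART00000154072.2 at 780 nM II (49.8) and 7.8 µM III (29).

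The share of the log2 fall present at 60 nM ran from 19.5% to 82.9%, with a median of 49.1%. It was under 40% in 65 members, 40% to 60% in 93 and over 60% in 42. The first step was the larger in 91 members and the second in 109. Both steps reached 1 on the log2 scale in 10 members, while 40 fell that far by 60 nM and 52 between 60 nM and 2.3 µM. Across the members the steps were inversely related (Spearman's rho -0.33, 200 members). Both steps contain the 60 nM mean, with opposite signs, which by itself pulls this value below 0. The limits on each step and the choice by total fall enter it too, so it is a description only.

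The smallest shares at 60 nM belonged to transcripts that changed little before the higher concentration. ENSDART00000012789.8 had 125, 105 and 118 scaled counts in control, 89.2, 92.8 and 65.3 at 60 nM and 5.19, 30.1 and 18.3 at 2.3 µM, so that 19.5% of its fall was present at 60 nM. ENSDART00000166239.3 had 67.2, 65.2 and 78.3, then 56, 50.8 and 49.2, then 0, 15.7 and 24, and again replicate I at 2.3 µM was listed at 0. ENSDART00000079319.4, whose estimates were whole numbers in all libraries, had 54, 55 and 50.1 in control, 32.2, 33.1 and 46 at 60 nM and 11.7, 7.22 and 5.72 at 2.3 µM. In all 3 the 60 nM step was just over the limit of 0.4 that the rule sets, at 0.47, 0.40 and 0.46.

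**Figure D3:**
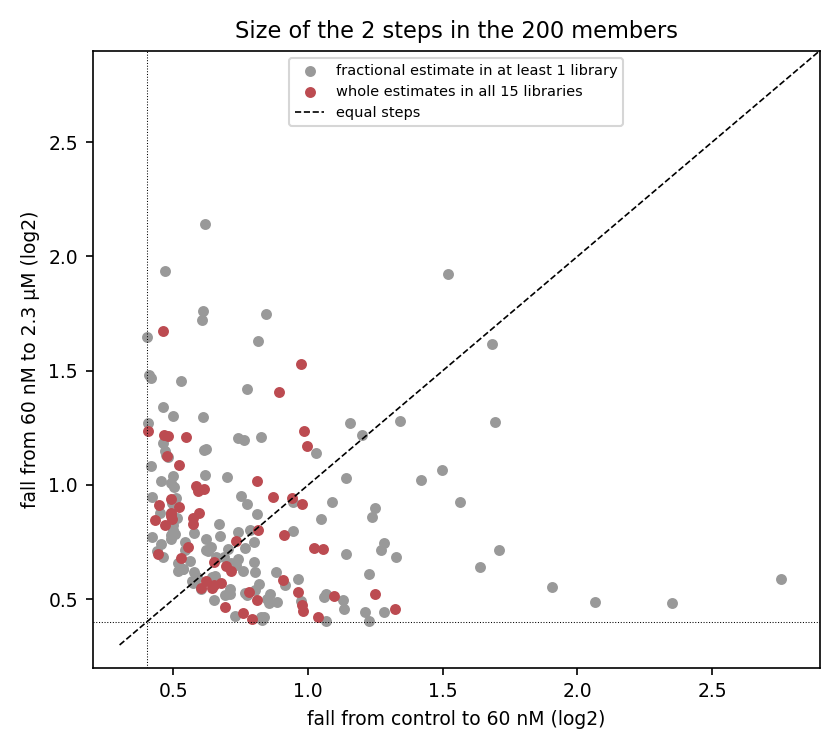
Each point is 1 of the 200 members, with the fall from control to 60 nM on the horizontal axis and the fall from 60 nM to 2.3 µM on the vertical axis (both log2); dotted lines mark the limit of 0.4 and the dashed line equal steps. The 58 members with whole estimates (red) spread over the same region as the bulk of the 142 others (grey), and the falls over 1.4 at 60 nM are all grey.

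In the 5 members with the highest control counts, counting error is small next to the count. They fall stepwise because the rule demands it. How reads were divided between transcripts still bears on those with fractional estimates. Counts are not corrected for transcript length, which the files do not give, so levels are not compared between transcripts. ENSDART00000078734.6 had 9057, 9551 and 7903 scaled counts in control, 2343, 3096 and 3062 at 60 nM and 2050, 1780 and 1621 at 2.3 µM, a total fall of 2.28 with 71.9% of it at 60 nM. ENSDART00000168241.2 had 10430, 10046 and 7725 in control, 4532, 5705 and 5048 at 60 nM and 3323, 3814 and 3756 at 2.3 µM. Both fell most in the first step. ENSDART00000104254.5 fell mostly in the second, from 4481, 4465 and 5614 in control through 3742, 3239 and 3111 to 1480, 970.5 and 1227.

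ENSDART00000099056.5 had 4169, 4413 and 4300 scaled counts in control, 2999, 2817 and 3243 at 60 nM and 1882, 1921 and 1440 at 2.3 µM, with a control SD of 122 on a mean of 4294 (n = 3). ENSDART00000181968.1 alone of the 5 had whole estimates in every library. It had 3576, 4060 and 4549 in control, 2336, 2509 and 3120 at 60 nM and 1235, 1417 and 1367 at 2.3 µM. Its acetochlor 7.8 µM libraries, at 5321, 4860 and 4638, were all above the highest control, the opposite side from tefluthrin. Without these 5 transcripts the members held 0.39% to 0.406% of control counts, 0.221% to 0.226% at 60 nM and 0.111% to 0.119% at 2.3 µM.

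The limit of 200 fell in a continuous range of values. Just inside it, ENSDART00000055995.6, ENSDART00000061729.7 and ENSDART00000157944.2 each fell by 1.14 on the log2 scale. Just outside, ENSDART00000166073.2, ENSDART00000039913.5 and ENSDART00000166590.2 fell by 1.13, 1.13 and 1.12. The last transcript inside had 91.2, 111 and 95.7 scaled counts in control, 86, 62 and 56.1 at 60 nM and 41.5, 49.3 and 36.4 at 2.3 µM, and the first outside had 426, 395 and 376 in control, 220.4, 279 and 296 at 60 nM and 150.3, 206 and 182 at 2.3 µM. In all, 95 transcripts met the conditions with a smaller fall and were not taken.

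An estimate is fractional where reads are divided between transcripts. Of the members, 58 (29%) had whole estimates in all 15 libraries and 84 (42%) had a fractional one in every library. Among the 21417 transcripts with a control mean in the same range these shares were 25.5% and 50.5%. The fall to 2.3 µM had a median of 1.47 in the members with whole estimates, with a range of 1.14 to 2.5, and of 1.50 in the 142 others, with a range of 1.14 to 3.44. The share of the fall at 60 nM was 46.9% and 49.3%. The median fall was close in both sets, while each of the 10 largest falls was in a transcript with divided reads, whose level is less certain.

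The rule was also applied 9 times, each time without 1 control or tefluthrin library. The 200 transcripts then chosen were looked up in the library left out, which had still entered the scaling. Between 159 and 182 of each 200 were members of the full choice. A control library left out was above every 60 nM library in 190 (replicate I), 170 (II) and 180 (III) of the 200. A 60 nM library left out was below every control and above every 2.3 µM library in 164 (I), 174 (II) and 168 (III). A 2.3 µM library left out was below every 60 nM library in 178 (I), 168 (II) and 178 (III), and below every control library in 200, 200 and 198. A library left out was thus in the place of its group in 82% to 95% of the 200 transcripts chosen without it. These shares are not comparable between groups, since only 60 nM libraries had to meet a limit on both sides. Below every control alone, the 60 nM libraries left out counted 188 (I), 192 (II) and 187 (III). The libraries it was compared with were set apart by the rule, and the share among all transcripts was not computed. These counts are therefore a description and give no independent support.

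The 60 nM libraries left out were lower than control by a median of 0.81, 0.78 and 0.77 on the log2 scale, against 0.77, 0.77 and 0.72 in the libraries kept. At 2.3 µM the falls were 1.50, 1.48 and 1.44 in the libraries left out against 1.54, 1.65 and 1.58 in those kept. Taken transcript by transcript, the 2.3 µM library left out was higher than the 2.3 µM libraries kept by a median of 0.07, 0.18 and 0.11, and the control library left out differed from the controls kept by a median of -0.07, -0.06 and -0.09. At 60 nM the same difference was -0.06, -0.04 and 0.01. No p-value is attached to these counts, since the transcripts of a library are not independent and the 9 choices share most of their libraries.

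**Figure D4:**
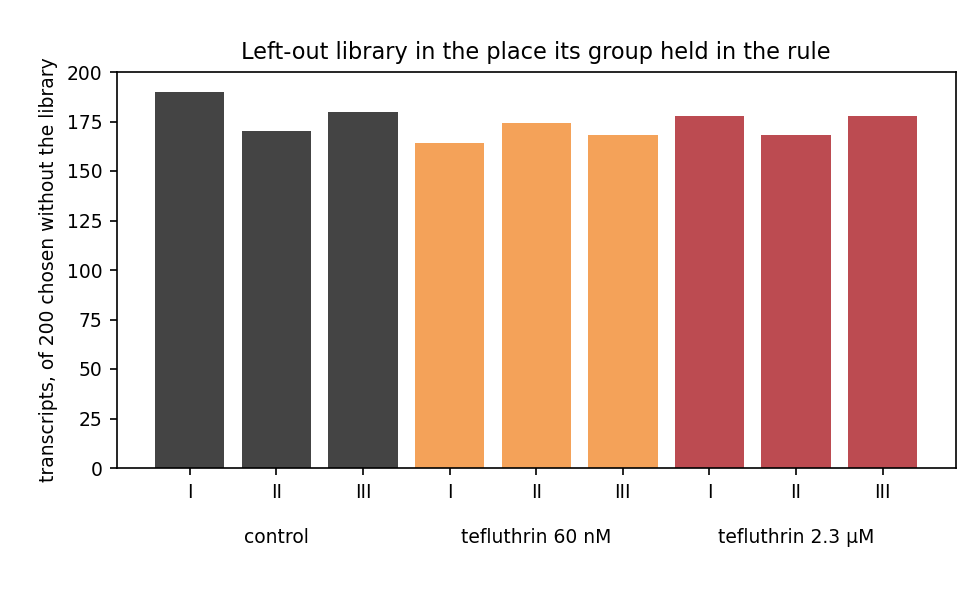
Bars give, for each of the 9 control and tefluthrin libraries, how many of the 200 transcripts chosen without it had that library in the place of its group (control above every 60 nM library, 60 nM between the others, 2.3 µM below every 60 nM library); the vertical axis starts at 0 and ends at 200. Bars run from 164 to 190. The 60 nM libraries had to meet a limit on both sides and the others on a single side, so bars are not compared between groups.

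The members' spread between replicates was close to that of other transcripts in control, where the median coefficient of variation was 9.69% in members and 9.59% in the 21417 transcripts of the same control range. It was 10.9% and 9.96% at 60 nM, and 15.4% and 10.5% at 2.3 µM, where members had fewer counts. At acetochlor 780 nM it was 13.8% and 13.1%, and at 7.8 µM 10.8% and 10.8%. The rule demands groups that do not overlap, which bears on the spread in the first 3 groups, but it sets no lower limit on the 2.3 µM libraries. The members' median spread was not smaller than that of the control range in any of these 3 groups.

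Acetochlor served as the measure that the rule did not use. The 60 nM libraries were chosen to be low, so the next counts are a description only. In 148 members all 6 acetochlor libraries were above every tefluthrin 60 nM library, where 9.51% of all transcripts had this. In 0 members all 3 libraries at 7.8 µM were below every 60 nM library, and the share of all transcripts was not computed for this. Between acetochlor 7.8 µM and 780 nM, groups that took no part in the choice, edgeR's quasi-likelihood test called 0 of the 200 members. A call is an adjusted p-value (Benjamini-Hochberg) under 0.05, and 0.0669% of the 35865 transcripts tested were called. The spread in this main fit was estimated from all 15 libraries, including those that the rule used. A fit of only the groups compared called 0 members and 2 of all transcripts, where the main fit called 24. In the main fit, at an unadjusted p-value under 0.05, 9 members (4.5%) were lower and 2 (1%) higher at 7.8 µM, where 2.26% and 2.39% of all transcripts were. DESeq2 called 1 member, lower at 7.8 µM, and 0.6% of all transcripts, and limma voom called 0 members and 0.0641% of all transcripts. The libraries did not overlap in 13 members that were lower (6.5%) and 4 that were higher (2%), against 4.19% and 4.08% of all transcripts. Here and below, shares of all transcripts are over those tested, to which the rule's limits on the control mean were not applied. Members and all transcripts are therefore not matched in level, and acetochlor shares within the members' control range were not computed.

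The members' median log2 fold change between the acetochlor concentrations was -0.06, where that of all transcripts was -0.0036, and 124 of 200 (62%) were negative against 50.8% of all transcripts. The median ran from -0.10 without acetochlor 7.8 µM replicate I to -0.03 without replicate III of that group or without acetochlor 780 nM replicate I. The count of negative members was 135 without acetochlor 7.8 µM replicate I and 107 without acetochlor 780 nM replicate I. With library totals it was 103, where the median of all transcripts was 0.05. Members share the same libraries and are not independent, so the count is a description. No member moved by 1 or more on the log2 scale in either direction between these groups; the range was -0.49 to 0.72.

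The smallest p-value between the acetochlor concentrations belonged to ENSDART00000113097.4. It had 496, 439 and 463 scaled counts at 780 nM and 374, 338 and 342 at 7.8 µM, which do not overlap, a log2 fold change of -0.41 ± 0.0731 (SE; adjusted p = 0.116 in edgeR). DESeq2 gave an adjusted p of 0.000359 for the same difference, and over all alternatives the adjusted p ran from 0.000359 to 0.737. In control it had 484, 469.8 and 468, at tefluthrin 60 nM 256, 283 and 294 and at 2.3 µM 112, 120.4 and 122. Acetochlor 7.8 µM thus lay between control and tefluthrin 60 nM in this transcript, lower in 3 of 3 libraries than any control.

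The next 4 by p-value were not called by edgeR, DESeq2 or limma voom between the acetochlor concentrations. ENSDART00000105427.4 had 884, 816 and 838 scaled counts at acetochlor 780 nM and 749, 773 and 739 at 7.8 µM, a log2 fold change of -0.17 ± 0.0528 (SE; adjusted p = 0.83 in edgeR), with 924, 926 and 932 in control. ENSDART00000013411.6 had 2746, 2455 and 2521 at 780 nM and 2185, 1995 and 2220 at 7.8 µM, a change of -0.27 ± 0.107 (SE; adjusted p = 1 in edgeR). In both the libraries of the concentrations did not overlap. ENSDART00000172241.2 had 331, 243 and 290.4 and 257, 246 and 209, which overlap, a change of -0.28 ± 0.115 (SE; adjusted p = 1 in edgeR). ENSDART00000056460.7 went the other way, with 122, 136 and 135 at 780 nM and 224, 188 and 168 at 7.8 µM, a change of 0.56 ± 0.21 (SE; adjusted p = 0.983 in edgeR). Its control libraries, at 156, 148 and 153, lay between the concentrations.

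Set against control, acetochlor values share the control libraries with the rule, which favours transcripts with high control values, so they are given side by side and support no statement on their own. edgeR called 0 members at 780 nM and 0 at 7.8 µM, where 0% and 0.106% of all transcripts were called. At an unadjusted p-value under 0.05, 4 members (2%) were lower and 0 higher at 780 nM, and 20 (10%) were lower and 0 higher at 7.8 µM; the shares of all transcripts were 1.23% and 1.3% at 780 nM, and 3.79% and 3.33% at 7.8 µM. At 7.8 µM DESeq2 called 5 members, all lower, and 1.22% of all transcripts; limma voom called 2 members, both lower, and 0.117%. At 780 nM both tools called 0 members, where DESeq2 called 0.289% and limma voom 0% of all transcripts. All 3 libraries were below every control library in 14 members (7%) at 780 nM and in 43 (21.5%) at 7.8 µM, against 3.57% and 7.26% of all transcripts. They were above every control library in 1 member (0.5%) and 7 members (3.5%), against 3.33% and 6.46%. At both concentrations, 6 members (3%) were below every control library, against 1.12% of all transcripts.

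The median log2 fold change of the members against control was -0.05 at 780 nM and -0.09 at 7.8 µM, where the medians of all transcripts were 0.0032 and 0.0022. The member with the largest change at 7.8 µM was ENSDART00000144946.2, singled out once its values were known. It had 149, 113 and 107 scaled counts in control, 66.7, 79.5 and 70.9 at acetochlor 780 nM and 56.1, 43.8 and 54.5 at 7.8 µM. The higher concentration gave -1.25 ± 0.318 against control (log2 fold change ± SE; adjusted p = 0.295 in edgeR), and the adjusted p was 0.000545 with DESeq2, 0.0367 with limma voom and 0.000545 to 0.828 over the alternatives. In the tefluthrin libraries it had 46.5, 47.1 and 63.6 at 60 nM and 13.1, 10.3 and 32.9 at 2.3 µM. It was the only member with a change of 1 or more on the log2 scale at either acetochlor concentration, and it had fractional estimates in all 15 libraries.

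The other 4 members that DESeq2 called against control at acetochlor 7.8 µM changed by less. ENSDART00000113097.4 had a log2 fold change of -0.43 ± 0.0731 (SE), with an adjusted p of 0.055 with edgeR and 6.13e-05 with DESeq2 (6.13e-05 to 0.305 over the alternatives); limma voom gave 0.0499. For ENSDART00000105427.4 the log2 fold change was -0.30 ± 0.0528 and the adjusted p 0.0623 with edgeR and 5.86e-05 with DESeq2 (5.86e-05 to 0.293 over the alternatives). For ENSDART00000013411.6 they were -0.41 ± 0.107 and 0.301 with edgeR and 0.0157 with DESeq2 (0.0157 to 0.968 over the alternatives). In each of these 3 the 7.8 µM libraries were below every control library. ENSDART00000055706.6 had 297, 319 and 248 scaled counts in control, 226, 224 and 262 at acetochlor 780 nM and 212, 186 and 203 at 7.8 µM, a log2 fold change of -0.52 ± 0.154 (SE), with an adjusted p of 0.419 with edgeR and 0.0365 with DESeq2 (0.0365 to 1 over the alternatives). Its tefluthrin libraries had 128, 128 and 148 at 60 nM and 127, 76.4 and 98.8 at 2.3 µM.

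Library by library, the median member differed from the control mean by -0.03, 0.02 and -0.01 on the log2 scale in the control libraries. It differed by -0.74, -0.73 and -0.72 at tefluthrin 60 nM and by -1.58, -1.50 and -1.53 at 2.3 µM. The acetochlor medians were -0.01, -0.12 and -0.11 at 780 nM and -0.06, -0.12 and -0.18 at 7.8 µM. Acetochlor 7.8 µM replicate III was the lowest of these 6 and acetochlor 780 nM replicate I the highest. The acetochlor groups overlapped each other in this median.

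**Figure D5:**
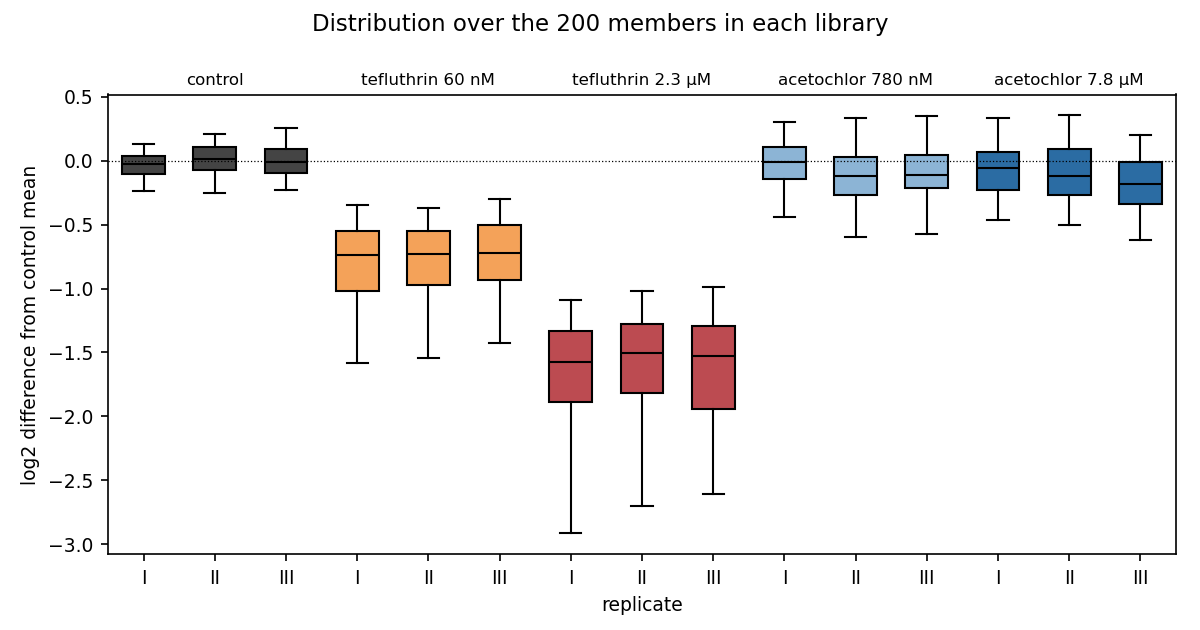
Distribution over the 200 members of log2(scaled count + 5) minus log2(control mean + 5) in each of the 15 libraries; boxes span the quartiles with the median as a line, and whiskers the 5th to the 95th percentile. The tefluthrin boxes step down from medians near -0.73 to medians of -1.58 to -1.50, and the acetochlor medians lie between -0.18 and -0.01.

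The scaling bears on how many transcripts meet the rule. Median-of-ratios scaling put the median transcript of the control range at -0.04 relative to control at tefluthrin 2.3 µM (log2), and library totals put it at -0.18. The members' median fall to 2.3 µM was 1.49 with the former, 1.50 with TMM and 1.63 with library totals. With each of the 3 scalings the smallest fall among the members was over 1. They were chosen with falls of 1.14 or more under median-of-ratios scaling, so this is a description only. With library totals 476 transcripts met the rule in place of 295, and 158 of the 200 members were among the 200 taken; with TMM 305 met it and 196 were.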

How the data were processed

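RNA was measured in 15 libraries of pooled whole larvae, 3 per group by the treatment label. The deposited files hold estimated counts per Ensembl transcript, not scaled for depth; per the submitters' processing notes the tools include Salmon 1.6.0 and the genome build is GRCz11, and the annotation release is not given in the sources used here. In each library 67.2% to 69.9% of transcripts above 0 had a fractional estimate. One set of column headers gives nanomolar for the 2.3 µM group, where titles, treatment labels and design text give micromolar, and the labels were followed.

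The rule for members used median-of-ratios scaled counts, as stated above. For tests, counts were rounded, filtered with edgeR's filterByExpr (35865 transcripts, at least 99.83% of counts, all 200 members) and scaled with TMM. One quasi-likelihood model of the 15 libraries had no term besides group, with two-sided tests adjusted by the Benjamini-Hochberg method over all transcripts; the SE is the log2 fold change divided by the square root of F. The model was checked on counts simulated for acetochlor 7.8 µM against 780 nM. There it recovered 61% of changes of 1 (log2) and 96% of changes of 2, and 1.88% of its calls were false. The simulated counts were drawn around control means, with the spread that edgeR itself had estimated. Changes were planted only in transcripts above a lower limit on counts. These shares therefore hold for counts that follow the model, and do not measure errors in the real libraries. Smaller changes were not simulated, and every member changed by less than 1 between these groups. Tools were edgeR 4.0.16, DESeq2 1.42.0 and limma 3.58.1 in R 4.3.3, and Python 3.11.15 with matplotlib 3.10.9. A count of 0 allows up to 3 counts, worth 0.119 to 0.181 CPM or 2.35 to 3.61 scaled counts by library, which covers counting error only.

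Members with values in the text were the 10 with the largest fall, the 5 with the highest control mean, the 5 with the smallest p between the acetochlor concentrations and any member called there or against control (0 with edgeR; the members called by another tool were added after their values were seen), the 3 on each side of the limit of 200, and the 3 with the largest and smallest share of the fall at 60 nM. The members, lists and rules were chosen with earlier results of these data known. Gene lists of 709 entries drawn up for use with gene symbols were not run, because transcripts could not be paired with genes. Alternatives changed the scaling, filter, test, samples in the fit, pairing, pseudocount, step and control limits, or left out 1 library.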

Additional observations from a re-analysis of the deposited data

Results flagged for a closer look

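In 7 members (3.5%) every acetochlor 7.8 µM library was above every control library, the opposite side from tefluthrin, where the rule put every library below control. Among all transcripts tested, 6.46% had acetochlor 7.8 µM above every control, a larger share than among the members. Whether acetochlor and tefluthrin differ in these members was not tested, since the tefluthrin values chose them. The acetochlor change was not called in any of the 7: the largest was in ENSDART00000194692.1, with 66.4, 73.3 and 92.6 scaled counts in control and 118, 135 and 105 at acetochlor 7.8 µM, a log2 fold change of 0.62 (edgeR adjusted p = 0.741). Of the 7, ENSDART00000181968.1 alone had whole estimates in all libraries (log2 fold change 0.28, edgeR adjusted p = 0.799).

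In 1 member, ENSDART00000056460.7, all acetochlor 780 nM libraries were below the control mean and all acetochlor 7.8 µM libraries above it. The share of all transcripts with this pattern was not computed. The direct test between the concentrations gave a log2 fold change of 0.56 (edgeR adjusted p = 0.983), and its estimates were fractional in all 15 libraries.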

How the results depend on the processing

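The count of members called between the acetochlor concentrations, 0, was 1 with DESeq2. Against control at acetochlor 7.8 µM it was 5 with DESeq2 and 2 with limma voom in place of 0. It stayed at 0 under all other alternatives run for these comparisons and under every alternative at 780 nM, and leaving out 1 library gave 0 to 0 in each. The causes were not tested. With the replicate number as a replicate block the counts were 0, 0 and 0. Same-numbered libraries of these groups deviated together with r of -0.116 to 0.0289 across transcripts, and not every library correlated best with its own number, so the numbers were not taken as pairs. For ENSDART00000113097.4, DESeq2 alone passed the threshold between the concentrations.

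The 295 transcripts that met the rule became 476 with library totals and 80 with a step of 0.6, where 80 members remained by construction; leaving out 1 library gave 295 to 367, with 159 to 182 members kept. The other rule settings kept 158 to 196 of the 200 members. The members' median log2 fold change stayed negative under every alternative, between -0.10 and -0.01 between the acetochlor concentrations (-0.01 with library totals, where all transcripts had 0.05), between -0.15 and -0.02 at 7.8 µM and between -0.10 and -0.04 at 780 nM against control. The lowest of these came without acetochlor 7.8 µM replicate I (-0.15, and -0.14 without replicate II) and without acetochlor 780 nM replicate I (-0.10). Falls of the 10 members with the largest fall stayed at 2.36 or more. Low counts at 2.3 µM limit the precision in 25 members with a mean under 20 scaled counts there.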

Other observations

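A rule with the same limits but the opposite direction, a stepwise rise with tefluthrin, was met by 428 transcripts, against 295 for the stepwise fall. With TMM the counts were 415 and 305. With library totals they were 294 and 476, so which direction is the more frequent depends on the scaling.

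The member with the widest spread in a group outside the rule was ENSDART00000194022.1 at acetochlor 780 nM, with 90.5, 224 and 0 scaled counts. It was picked after its values were seen. In control it had 104, 181 and 124, at tefluthrin 60 nM 50.9, 42.3 and 60.8, and at acetochlor 7.8 µM 155, 151 and 87.3. It was the 1 member listed at 0 in an acetochlor library, and its estimates were fractional in 14 of the 15 libraries.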
